A study of Mus musculus with 8 samples.

Results

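Dcpp1, Dcpp2 and Dcpp3, which encode demilune cell and parotid proteins, and Pip, which encodes prolactin-inducible protein, were followed in the lacrimal glands (LGs) of mice on an ad libitum (AL) diet or on calorie restriction (CR). The 4 genes were picked by symbol out of 24552 in the count table, and they were selected on what earlier analyses of the same libraries had shown, so their difference between diets is given as a description without a p-value. The exorbital glands came from females of the C57BL/6J strain and were sequenced as 8 RNA libraries, 4 of the AL group and 4 of the group on a 40% CR, all collected at 10/11 months of age after 4 months on the diet. The labels name no transgene, drug or other treatment in either group. A pair of mouse cohorts was described for the diets, one on a standard chow and one in which the CR chow was enriched in vitamins and micronutrients relative to the AL chow, and which of them gave the sequenced glands is not given in the sources used here. RNA was primed from the poly(A) tail, so that each read marks the 3′ end of a transcript, and a level is given here in CPM, a gene's counts relative to the library size, with sizes made comparable between libraries by relative log expression (RLE) factors.

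The LG secretes the watery, protein-rich part of the tear film, and its acinar cells share many secreted products with the acini of the salivary glands. Dcpp genes encode small secreted lectin-like proteins that are made by the serous demilune cells capping the mucous acini of the sublingual gland and by the parotid gland. Pip is a secreted glycoprotein of tears, saliva and milk whose transcription is known to respond to prolactin, and which binds CD4, fibronectin and zinc-alpha-2-glycoprotein.

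In the GENCODE annotation of GRCm38, which is the mm10 build of the counts, the 3 Dcpp genes lie side by side on the plus strand of chromosome 17 within 38.6 kb. Dcpp1 (Gene ID 13184) spans chr17:23880876-23882853, Dcpp2 (Gene ID 630537) chr17:23880880-23900788 and Dcpp3 (Gene ID 620253) chr17:23917458-23919441. One annotated transcript of Dcpp2 begins in the first exon of Dcpp1, and the exons of these genes share 30 bases. Pip (Gene ID 18716) lies on the plus strand of chromosome 6, at chr6:41847535-41852065, and its relative Sval2 starts 0.923 kb beyond its end.

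The 250 bases upstream of each RefSeq start are shown because they let the copies of the Dcpp family be compared with each other and with Pip. They lie outside the annotated first exon of the RefSeq gene. Sequences are from RefSeq on GRCm38.p6, plus strand, at chr17:23880626-23880875 for Dcpp1, chr17:23898472-23898721 for Dcpp2, chr17:23917208-23917457 for Dcpp3 and chr6:41847299-41847548 for Pip, and capitals mark the TATAA nearest to the start.
Dcpp1: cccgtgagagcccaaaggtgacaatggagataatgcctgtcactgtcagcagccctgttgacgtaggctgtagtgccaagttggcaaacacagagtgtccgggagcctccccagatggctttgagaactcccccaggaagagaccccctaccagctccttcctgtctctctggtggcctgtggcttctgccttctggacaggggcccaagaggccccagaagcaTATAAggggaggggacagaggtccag
Dcpp2: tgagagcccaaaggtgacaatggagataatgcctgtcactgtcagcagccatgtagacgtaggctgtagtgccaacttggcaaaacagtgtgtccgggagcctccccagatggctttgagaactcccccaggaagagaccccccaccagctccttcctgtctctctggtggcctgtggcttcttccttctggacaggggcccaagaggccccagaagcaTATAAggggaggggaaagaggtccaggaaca
Dcpp3: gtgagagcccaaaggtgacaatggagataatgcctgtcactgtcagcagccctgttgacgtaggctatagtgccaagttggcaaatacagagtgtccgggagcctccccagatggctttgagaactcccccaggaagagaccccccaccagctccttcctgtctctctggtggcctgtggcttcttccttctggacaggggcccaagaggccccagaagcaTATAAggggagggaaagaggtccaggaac
Pip: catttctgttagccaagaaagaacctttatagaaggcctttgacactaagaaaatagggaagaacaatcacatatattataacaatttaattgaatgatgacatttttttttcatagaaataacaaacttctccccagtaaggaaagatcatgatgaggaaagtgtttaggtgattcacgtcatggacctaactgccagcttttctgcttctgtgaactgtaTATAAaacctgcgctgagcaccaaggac
The upstream sequences of the Dcpp genes were near copies, with 93.3% identical columns in the alignment of Dcpp1 with Dcpp2, 94.9% for Dcpp1 with Dcpp3 and 96.4% for Dcpp2 with Dcpp3, while Pip matched them at 41.5 to 44.1%. The letters TATAA stood 26, 31 and 29 bases before the starts of Dcpp1, Dcpp2 and Dcpp3. Pip held 4 matches to TATAA on both strands together, the nearest 28 bases before its start. Of all 32851 promoters of the same length, 22.8% held TATAA on either strand. The palindrome TTCNNNGAA, the form bound by STAT5, which acts downstream of the prolactin receptor, was found at 2 places upstream of Pip, 140 and 42 bases before its start, and at 0 places upstream of the Dcpp genes. It occurred in 7.02% of all promoters. These matches describe letters in a short window, and binding was not measured.

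Between 12051881 and 22156511 reads per library were counted on genes, and a floor of 3 counts corresponded to 0.152 to 0.231 CPM. The 2 libraries numbered 4 had the lowest summed level of parotid gland markers in their diets. The sum over 7 markers was 25286, 14828, 10641 and 2018 CPM in AL replicates 1 to 4 and 214890, 237668, 186892 and 19921 CPM in CR replicates 1 to 4. Single markers did not all follow this order, since Prh1, Prb1 and Prp2 were higher in CR replicate 4 than in CR replicate 3. Dnase1 was as high in AL replicate 4, at 1781 CPM, as in AL replicate 1, at 1784 CPM, and made up most of the sum in AL replicate 4. The 11 LG markers were all detected, among them the odorant-binding protein gene Obp1a at 59030 to 163208 CPM. The secretoglobin genes Scgb2b7 and Scgb1b7 were the exception in CR, with Scgb2b7 at 0 in CR replicates 1 and 3 and Scgb1b7 at 0 in CR replicate 1.

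Dcpp1 was counted 5995, 3642, 1315 and 33 times in AL replicates 1 to 4 and 46830, 85514, 56435 and 4172 times in CR replicates 1 to 4. These counts correspond to 462, 223, 95.8 and 1.67 CPM in AL and to 3313, 5063, 3494 and 232 CPM in CR. CR replicates 1 to 3 lay above every AL library, CR replicate 4 lay between AL replicates 1 and 2, and AL replicate 4 was far below all others, so the diets overlapped. The mean level was 196 ± 199 CPM in AL and 3026 ± 2022 CPM in CR (SD, n = 4), a ratio of 15.5, and the fitted log2 fold change was 3.95 with a standard error (SE) of 1.19. Ordered by CPM without division by length, as each transcript of a 3′ end library gives about one read position, Dcpp1 ranked 65th, 127th, 384th and 9200th of all genes in AL replicates 1 to 4 and 21st, 23rd, 19th and 152nd in CR replicates 1 to 4.

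Dcpp3, the copy farthest along the cluster, was counted 214, 219, 82 and 1 times in AL and 2854, 8671, 7095 and 332 times in CR, in the order of the replicates. Its level was 16.5, 13.4, 5.98 and 0.0507 CPM in AL and 202, 513, 439 and 18.4 CPM in CR. Each CR library lay above each AL library, although CR replicate 4 exceeded AL replicate 1 only narrowly, and the value of AL replicate 4 was under the floor. Mean levels were 8.99 ± 7.42 CPM in AL and 293 ± 226 CPM in CR (SD, n = 4), a ratio of 32.6, with a log2 fold change of 5.04 (SE 1.11).

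Dcpp2 had the fewest counts of the family in all libraries but AL replicate 4, with 101, 92, 47 and 2 in AL and 459, 2607, 1973 and 103 in CR. Levels were 7.78, 5.64, 3.43 and 0.101 CPM in AL and 32.5, 154, 122 and 5.72 CPM in CR. CR replicate 4 lay between AL replicates 1 and 2, so the diets overlapped, and AL replicate 4 was again under the floor. Mean levels were 4.24 ± 3.28 CPM in AL and 78.7 ± 70.9 CPM in CR (SD, n = 4), a ratio of 18.6, with a log2 fold change of 4.24 (SE 0.99).

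Pip was counted 396669, 350642, 248188 and 419937 times in AL and 598941, 475178, 290299 and 387733 times in CR. These are 30564, 21508, 18087 and 21306 CPM in AL and 42368, 28136, 17975 and 21532 CPM in CR. The diets overlapped over most of their range, since the highest and the lowest of all 8 libraries were both CR libraries. Mean levels were 22866 ± 5366 CPM in AL and 27503 ± 10767 CPM in CR (SD, n = 4), and the log2 fold change of 0.27 was smaller than its SE of 0.45. Without CR replicate 1, the library with the highest level, it was -0.01. Pip made up 1.90 to 2.73% of all counts in AL and 2.01 to 4.16% in CR, and ranked between 7th and 11th of all genes in each library.

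**Figure D1:**
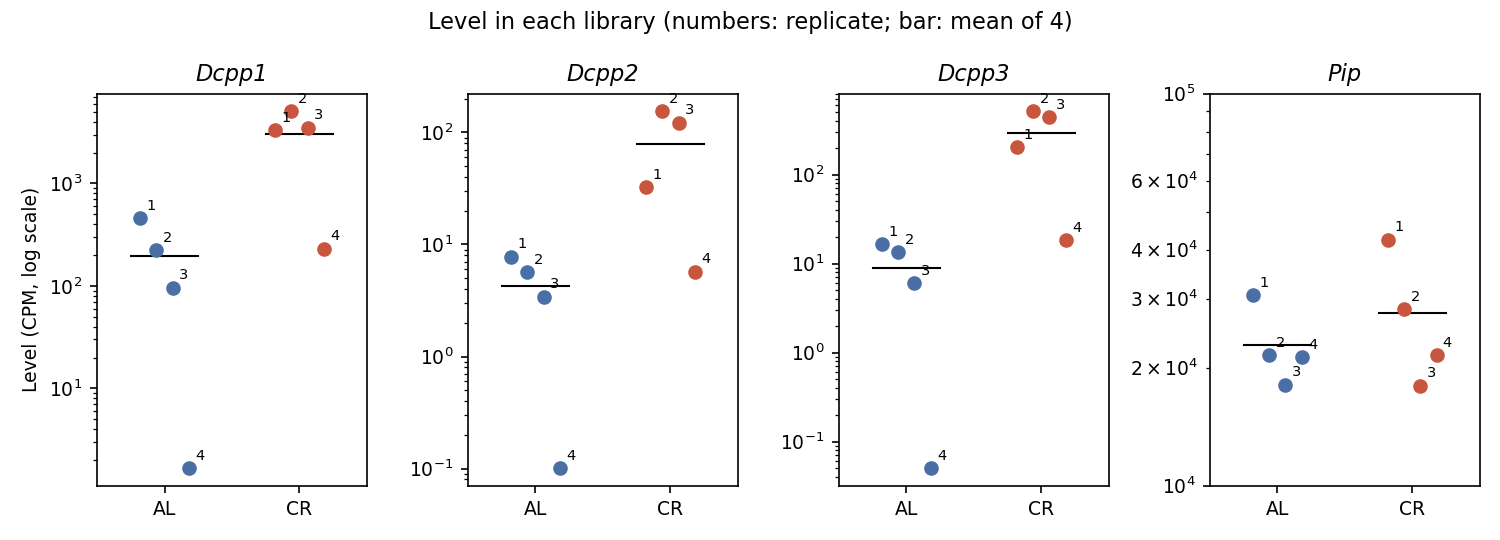
Level of Dcpp1, Dcpp2, Dcpp3 and Pip in each library, as CPM on a log axis whose range differs between panels, with AL in blue, CR in red, the replicate number beside each point and a bar at the mean of 4. The Dcpp genes spread widely within each diet, with AL replicate 4 lowest in each, while Pip lay between 17975 and 42368 CPM throughout.

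In bulk RNA, fewer cells of a type and less RNA per cell cannot be told apart, and the labels do not say whether each library came from a separate animal, so that n counts libraries. All 4 genes passed the filter on low counts. Of the 4, Dcpp3 alone passed both thresholds of the study (a fold change of 1.5 or more and an adjusted p below 0.05, by the quasi-likelihood test of edgeR with Benjamini-Hochberg correction), a call made for 1.2% of the 11211 genes tested in the direction of higher levels in CR. Dcpp3 was also the only one with each CR library above each AL library, which held for 4.58% of all genes tested. DESeq2, the tool of the study, called Dcpp1, Dcpp2 and Dcpp3 at the same thresholds, and 704 of all genes. The test of edgeR with robust dispersion estimates called 0 of the 4 and 205 of all genes. As the genes were selected on this contrast, nothing is read from any of these counts. Without CR replicate 4 the quasi-likelihood test called 3 of the 4 genes, with log2 fold changes of 4.34, 4.63, 5.43 and 0.37 for Dcpp1, Dcpp2, Dcpp3 and Pip. It then called 700 of all genes, against 222 with all libraries. Without AL replicate 4 it called 1 of the 4, with 3.53, 3.80, 4.61 and 0.23, and 166 of all genes. Without both libraries it called 3, with 3.92, 4.19, 5.0 and 0.33, and 656 of all genes. Leaving out any one of AL replicates 1 to 3 or CR replicates 1 to 3 left 0 of the 4 called, each with positive fold changes for the Dcpp genes. Those fits called 61 (without AL replicate 2) to 121 (without CR replicate 1) of all genes.

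The Dcpp genes also spread far more widely within each diet than Pip did. The pooled SD of log2 CPM within diets was 2.91 for Dcpp1, 2.26 for Dcpp2 and 2.67 for Dcpp3, and 0.44 for Pip. Dcpp1 differed 276-fold between the highest and the lowest AL library and 21.9-fold among the CR libraries, and Pip 1.69-fold and 2.36-fold. The ranges of Dcpp1 were set by the libraries numbered 4. In AL replicates 1 to 3 Dcpp1 ran at 95.8 to 462 CPM. In CR replicates 1 to 3 it ran at 3313 to 5063 CPM, a narrower relative range than that of Pip, at 17975 to 42368 CPM. Dcpp2 and Dcpp3 ran at 32.5 to 154 and 202 to 513 CPM in these CR libraries. The Dcpp genes moved together across the libraries. Pearson's r of log2 CPM over the 8 libraries was 0.973 for Dcpp1 with Dcpp2, 0.989 for Dcpp1 with Dcpp3 and 0.992 for Dcpp2 with Dcpp3. After each diet's mean was subtracted, these were 0.948, 0.986 and 0.984. Pip followed them weakly, with r of 0.408, 0.272 and 0.335 to Dcpp1, Dcpp2 and Dcpp3. These correlations are descriptions over libraries that share their depth and their RNA between genes. The Dcpp genes also share sequence, whose part in their likeness was not tested.

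The transcripts of the Dcpp family are 90.0% identical for Dcpp1 and Dcpp2, 93.4% for Dcpp1 and Dcpp3 and 91.8% for Dcpp2 and Dcpp3. Reads were 75 bases long, and in the last 600 bases of the transcript 33.5% of such windows of Dcpp1, 18.1% of Dcpp2 and 29.3% of Dcpp3 were found in another Dcpp gene and in no gene outside the family. The counts of single Dcpp genes are therefore uncertain, and how reads that fit several copies were counted is not given in the sources used here. Pip shared 0 of its 514 windows with another gene. Its transcript was 51.2% identical to that of Sval2, near the 48.3% of the unrelated pair Dcpp1 and Pip.

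Summed over the family, the level was 486, 242, 105 and 1.83 CPM in AL replicates 1 to 4 and 3547, 5731, 4056 and 256 CPM in CR replicates 1 to 4. CR replicate 4 fell between AL replicates 1 and 2 here too, and fitted as a single feature the sum had a log2 fold change of 4.02. Dcpp1 took most of the family's counts in each library, 95.01, 92.1, 91.1 and 91.7% in AL and 93.4, 88.3, 86.2 and 90.6% in CR. Dcpp3 took 3.39, 5.54, 5.68 and 2.78% in AL and 5.69, 8.96, 10.8 and 7.21% in CR. The lowest CR share, in replicate 1, had an exact (Clopper-Pearson) 95% interval of 5.49 to 5.90% and lay inside the 4.54 to 7.00% of AL replicate 3. AL replicate 4 carried 36 Dcpp counts, and its Dcpp3 share had an interval of 0.0703 to 14.5%. Dcpp2 took 1.60, 2.33, 3.25 and 5.56% in AL and 0.915, 2.69, 3.01 and 2.24% in CR, which overlapped. The intervals cover counting error only, since PCR copies of one molecule may have been counted as separate reads.

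**Figure D2:**
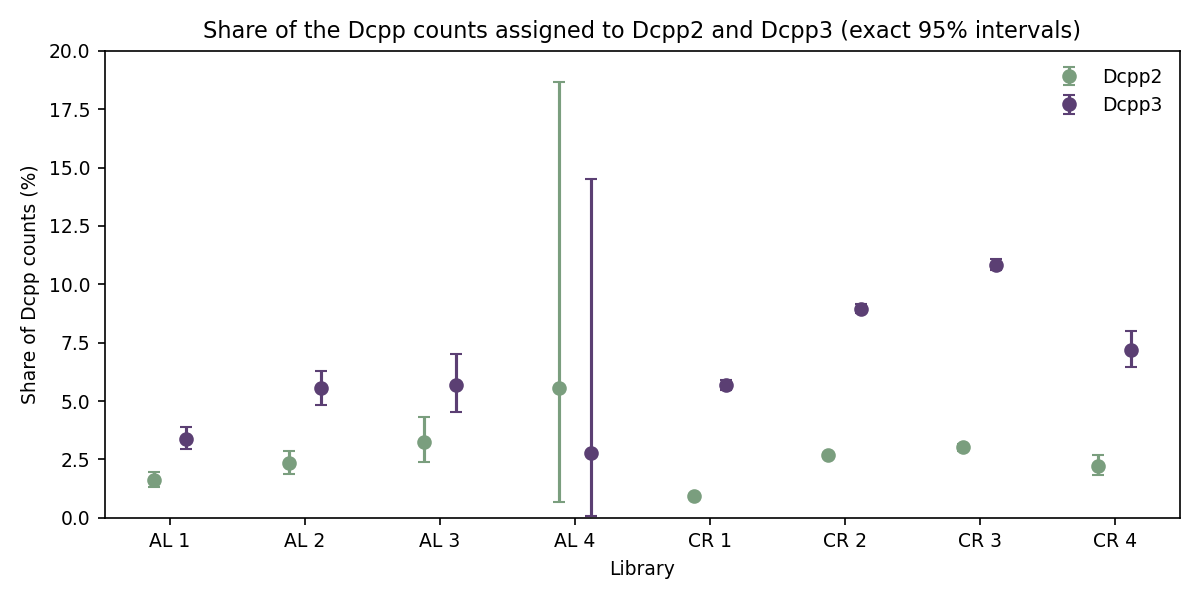
Share of the counts of Dcpp1, Dcpp2 and Dcpp3 together that was assigned to Dcpp2 (green) and to Dcpp3 (purple), in percent, in each library, with exact 95% intervals. The Dcpp3 share was highest in CR replicate 3, at 10.8%, and AL replicate 4, with 36 Dcpp counts, has by far the widest intervals.

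With Dcpp1, Dcpp2, Dcpp3 and Pip themselves left out of the ranking, the genes whose pattern over the 8 libraries was most like that of Dcpp1 were Amy1, salivary amylase, with r of 0.999, Pax9, a transcription factor gene, with 0.996, Bpifa2, which encodes parotid secretory protein, with 0.996, Klk1, tissue kallikrein, with 0.995, and Rnase1, a secreted ribonuclease, with 0.993. For Dcpp3 they were Agt, angiotensinogen, with r of 0.991, Cst10, a cystatin, with 0.991, Bpifa2 with 0.989, Crisp1, a cysteine-rich secretory protein, with 0.987 and Amy1 with 0.986. For Dcpp2 they were Tbcel with 0.978, Cst10 with 0.977, Klk1 with 0.975, Epm2aip1 with 0.972 and Agt with 0.970. The other Dcpp genes would have stood among these for Dcpp2 and Dcpp3, as their r given above shows. Tbcel and Epm2aip1 changed far less between diets than Dcpp2, with log2 fold changes of 0.75 and 0.28 against 4.24. Amy1, Bpifa2, Klk1, Agt and Cst10 each recurred beside more than one Dcpp gene, and Klk1 belongs to a family of close copies among which reads may be divided. After the diet means were subtracted, Klk1 was among the 5 most similar genes outside the family for each Dcpp gene, with r of 0.994 to Dcpp1, 0.964 to Dcpp2 and 0.992 to Dcpp3. The list for Dcpp1 then also held Amy1, Bpifa2, Pax9 and Agt, the list for Dcpp2 Mgat1, Mdm4, Ppara and Cpt2, and the list for Dcpp3 Chia1, Mgat1, Cst10 and Amy1. Mgat1, Mdm4, Ppara and Cpt2 hardly differed between diets, with log2 fold changes from -0.17 (Cpt2) to 0.19 (Mgat1).

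The genes most like Pip were others. Over the 8 libraries they were Bcl9, a cofactor of beta-catenin, with r of 0.972, Bcas2, a splicing factor, with 0.932, Elp4 with 0.920, Ccdc107 with 0.912 and Ivd with 0.904. With the diet means subtracted they were Wrnip1, Pxn, Zfp825, Bcl9 and 2310030G06Rik, with r of 0.967 to 0.979. The genes on both lists had mean levels from 1.05 CPM (Zfp825 in CR) to 27.2 CPM (Ivd in CR), far below Pip. They are the highest r among all genes tested, and a link to Pip was not tested. By Spearman's rho, 5 of these 40 places, 5 for each gene on each scale, were also among the 5 highest, so the order of genes within such lists is loose with 8 libraries.

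Mean levels of the parotid markers were higher in CR than in AL, as those of the Dcpp genes were. The gene lists here and below were chosen with earlier results of these data known, so their calls and p-values are descriptions only. Of the 7 parotid markers, 7 were tested, 7 had positive log2 fold changes, 3 were called higher in CR and 4 had each CR library above each AL library. Of all 11211 genes tested, 5734 had positive log2 fold changes, 1.2% were called higher and 4.58% had each CR library above each AL library. Their median log2 fold change was 4.21, against 0.01 over all genes tested. The called genes encode proline-rich salivary proteins: Prp2 (log2 fold change 9.85, SE 1.48, adjusted p = 0.00701), Prh1 (9.72, SE 1.78, adjusted p = 0.0207) and Prb1 (5.88, SE 1.27, adjusted p = 0.0377), by the same test of edgeR. Prh1 and Prp2 were at 0 in AL replicates 2 and 4 and passed the filter on low counts through their CR libraries. Their fitted fold changes rest on AL replicates 1 and 3 and are no bound. Without AL replicate 1 they were 11.6 for Prh1 and 12.5 for Prp2. Prpmp5, also a proline-rich protein gene, had 4.21 (SE 1.02, adjusted p = 0.0581), Bpifa2 3.80 (SE 1.13, adjusted p = 0.108), Amy1 3.59 (SE 1.10, adjusted p = 0.117) and Dnase1, a secreted nuclease, 1.32 (SE 0.43, adjusted p = 0.139). With robust dispersion estimates 0 of the 7 were called, and with at least 10 counts in every library 1 was called. All 7 were called without CR replicate 4, and also by DESeq2. These settings called 205, 198, 700 and 704 of all genes, against 222 in the main fit.

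Bpifa2, the most counted parotid marker, ran at 17744, 9816, 7918 and 190 CPM in AL and 167976, 165198, 151207 and 13700 CPM in CR. Its order of libraries was close to that of the Dcpp genes, with AL replicate 4 lowest and CR replicate 4 between AL replicates 1 and 2. Per 100 counts of Bpifa2 there were 2.74, 2.47, 1.33 and 0.961 Dcpp counts in AL and 2.11, 3.47, 2.68 and 1.87 in CR. These ratios averaged 1.88 ± 0.863 in AL and 2.53 ± 0.712 in CR (SD, n = 4) and overlapped, and over all libraries they differed 3.61-fold while the summed level of the Dcpp genes differed 3138-fold. Per 100 counts of all 7 parotid markers together, the Dcpp counts were 1.92, 1.64, 0.989 and 0.0905 in AL and 1.65, 2.41, 2.17 and 1.28 in CR, a 26.6-fold range that was set by AL replicate 4. In that library Dnase1 alone held 1781 of the 2018 CPM of the 7 markers, against 190 CPM for Bpifa2 and 45.4 CPM for Amy1. The part that tissue or RNA of a salivary gland had in the levels of the Dcpp genes was not tested. The mean log2 CPM of the 7 parotid markers was 2.39 to 7.47 in AL and 9.41 to 12.9 in CR, without overlap, so in a fit with this mean as a covariate the diet and the markers can hardly be told apart. In that fit 1 of all genes tested was called, and the log2 fold change was -1.73 (SE 1.75) for Dcpp1, 0.63 (SE 1.60) for Dcpp2, 0.97 (SE 1.79) for Dcpp3 and -0.44 (SE 0.86) for Pip.

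**Figure D3:**
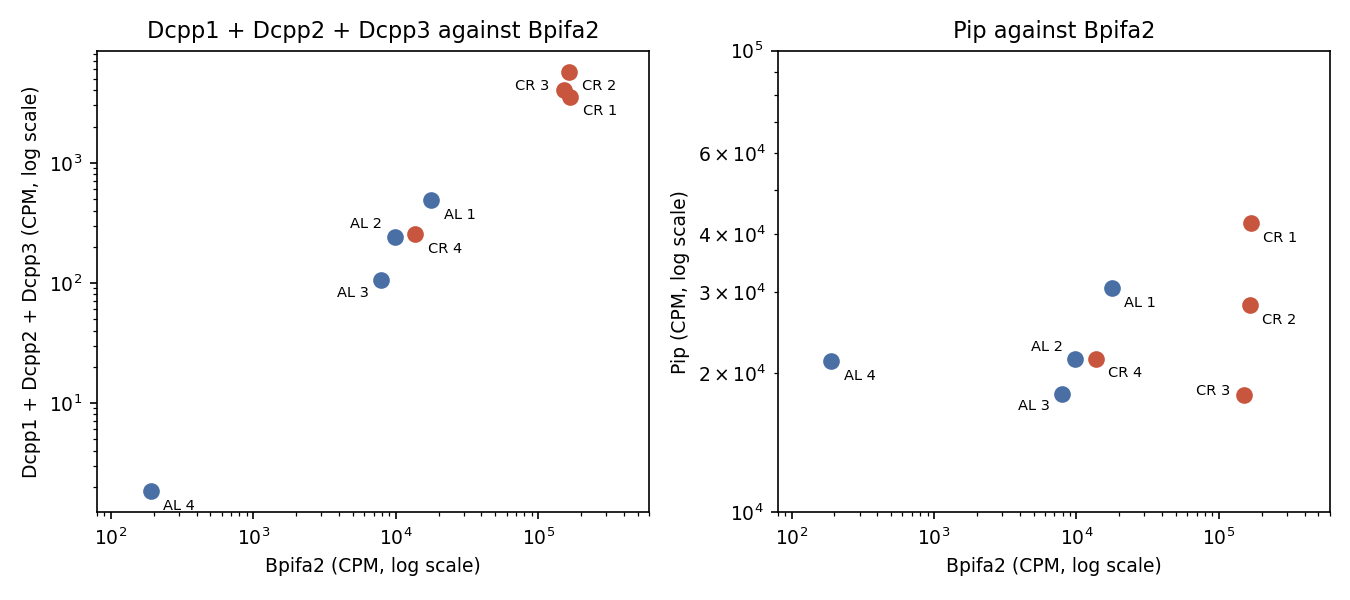
Summed level of Dcpp1, Dcpp2 and Dcpp3 (left) and level of Pip (right) against the level of Bpifa2, each in CPM on log axes, with 1 point per library, AL in blue and CR in red. The Dcpp sum rises with Bpifa2 from AL replicate 4, at 1.83 and 190 CPM, to CR replicates 1 to 3. Pip does not follow this order, and lies at 21306 CPM in AL replicate 4 and at 21532 CPM in CR replicate 4.

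Of the 5 markers of the sublingual gland, the home of the demilune cells, and of mucous cells, 3 passed the filter on low counts. Smgc, a mucous cell product, was at 0 counts in all 8 libraries, and Muc19, the main sublingual mucin, was at 0 in 7 of the 8 and at 3 counts in CR replicate 3. Zg16, a lectin gene listed as a relative of the Dcpp genes, was at 0 counts in all libraries. Of the 3 tested genes, 1 was called higher in CR: Creb3l1, a transcription factor of secretory cells, with a log2 fold change of 1.72 (SE 0.22, adjusted p = 0.00389 by edgeR's quasi-likelihood test) and 26.4 ± 7.19 CPM in AL against 87.2 ± 14.4 CPM in CR (SD, n = 4), without overlap. Spdef and Agr2, which mucous cells also use, ran at 4.66 to 14.5 CPM and at 39.6 to 226 CPM over all libraries, had log2 fold changes of 0.62 (SE 0.30) and -0.47 (SE 0.51) and were not called.

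Of 9 submandibular markers in the table, 3 passed the filter on low counts and 0 were called, and 1 of the 3, Smr3a, had an unadjusted p under 0.05, as had 16.7% of all genes tested. Smr3a, which encodes a salivary prohormone-like protein, ran with the Dcpp genes, at 4469, 1800, 1716 and 78.1 CPM in AL and 33103, 53197, 22706 and 4775 CPM in CR (log2 fold change 3.82, SE 1.0, adjusted p = 0.0734 by edgeR's quasi-likelihood test). It was called by DESeq2 (adjusted p = 0.000364), by voom (adjusted p = 0.0437), with no filter on low counts (adjusted p = 0.0180) and without CR replicate 4 (adjusted p = 0.0152). Prol1, at no more than 5.68 CPM, did not pass the filter in the main fit. It was called with no filter, without the 50 most counted genes, without CR replicate 4 and without both libraries numbered 4. Each CR library of Smr3a lay above each AL library, and its r with Dcpp1 was 0.988. Mucl2 and Egf had -0.75 (SE 0.59) and -0.05 (SE 0.26). Mucl2 ran at 101610 to 156809 CPM in AL and 58078 to 142072 CPM in CR. These levels were near those of the LG marker Obp1a, 59030 to 163208 CPM, so Mucl2 cannot be read as a submandibular marker here. The kallikrein genes of the submandibular ducts were close to absent, with Klk1b26 at 0 counts in all libraries and Klk1b9 and Klk1b22 at no more than 0.743 CPM.

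The LG markers went the other way or stayed near the middle. Of 11, all tested, 0 were called higher and 3 lower in CR, and the median log2 fold change was -0.78. Of all genes tested, 0.785% were called lower. Of the LG markers, 0 were called without AL replicate 1, AL replicate 2, CR replicate 2 or CR replicate 3, 1 with robust dispersion estimates and 6 without CR replicate 4. Of all genes, these settings called 78, 61, 65, 64, 205 and 700, against 222 in the main fit. The called genes were Scgb2b7 (-7.96, SE 1.45, adjusted p = 0.0197), Scgb1b7 (-7.82, SE 1.45, adjusted p = 0.0211) and Pigr, the polymeric immunoglobulin receptor (-0.95, SE 0.21, adjusted p = 0.0380), by the same test of edgeR. CR replicates 1 to 3 held no more than 7 counts of either secretoglobin, and CR replicate 4 held 158 of Scgb2b7 and 235 of Scgb1b7. Their fold changes therefore rest on CR replicate 4 and are no bound. Without it they were -13.5 for Scgb2b7 and -12.1 for Scgb1b7. Of the 11 log2 fold changes 1 was positive, that of Aqp5, the aquaporin of acinar cells (0.31, SE 0.20), which was not called. Pip, a product of the LG as well, lay at 0.27, below Aqp5 and above the other 10.

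**Figure D4:**
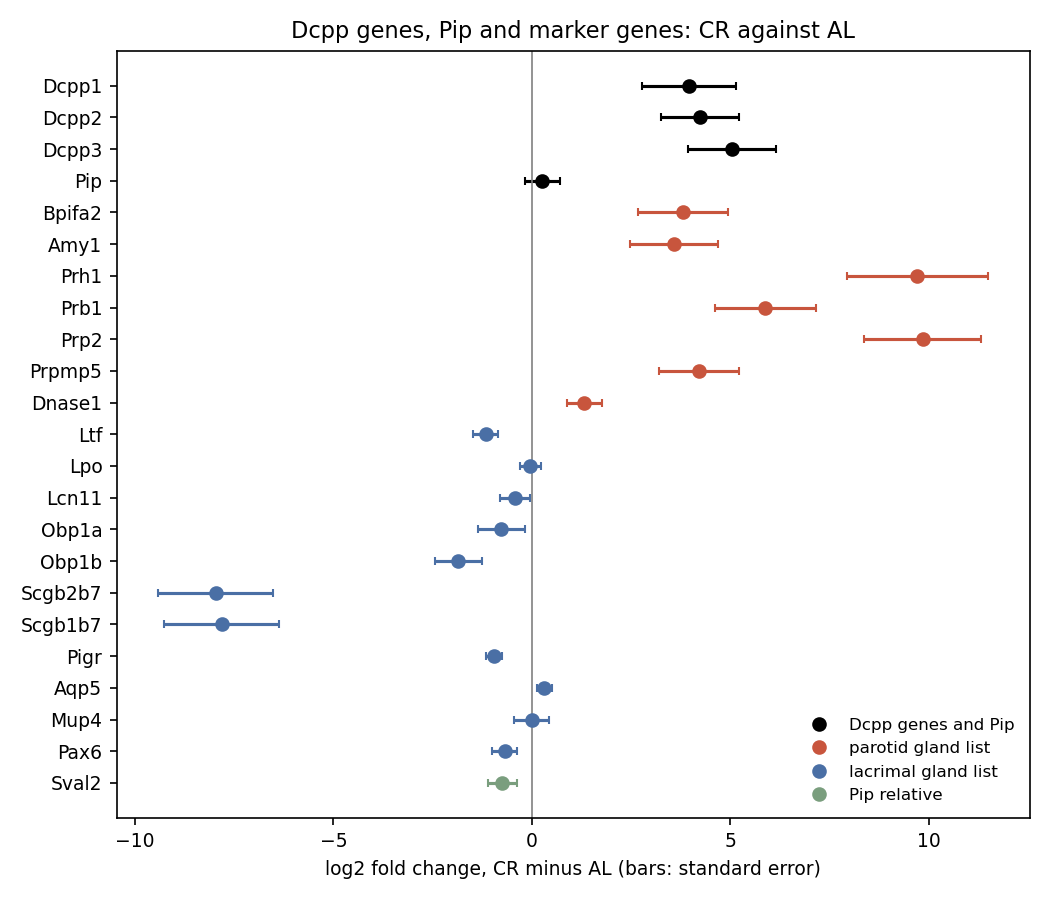
Fitted log2 fold change, CR minus AL, with its standard error, for the Dcpp genes and Pip (black), the parotid markers (red), the LG markers (blue) and Sval2 (green). The Dcpp genes, at 3.95 to 5.04, lie within the range of the parotid markers, and Pip, at 0.27, lies below Aqp5 and above the other LG markers.

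The genes around the Dcpp cluster were almost uncounted. On the left of it, Prss21 and Prss32 were at 0 counts and Prss41 at no more than 1 count in any library. On its right, Sbp, a spermine-binding protein gene, was at 0 counts, Sbpl at no more than 5 and the serine protease gene Prss30 at no more than 6. The levels of the Dcpp genes were therefore not shared by the nearest protein-coding genes on either side. Before Pip, Llcfc1 and Kel were at 0 counts and the olfactory receptor gene Olfr459 at no more than 4.

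Beyond Pip lie its relatives of the seminal vesicle antigen family. Of these, Sval1 and Sval3 were at 0 counts in all 8 libraries, Sva was at 0 in 5 and at no more than 8 counts in the others, and Sval2 alone passed the filter. Sval2 ran at 4089, 2501, 2446 and 2860 CPM in AL and 1486, 1192, 1239 and 3170 CPM in CR. CR replicates 1 to 3 lay below every AL library and CR replicate 4 above 3 of them, and the log2 fold change of -0.75 (SE 0.37) was not called (adjusted p = 0.341 by edgeR's quasi-likelihood test). Without CR replicate 4 Sval2 was called, with a log2 fold change of -1.19 and an adjusted p of 0.0286 in the same test of edgeR.

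The proportion of Pip to its neighbour Sval2 can be read within each library. There were 747, 860, 739 and 745 counts of Pip per 100 of Sval2 in AL replicates 1 to 4, and 2851, 2361, 1451 and 679 in the CR replicates in the same order. The AL libraries lay close together, CR replicates 1 to 3 lay above all of them and CR replicate 4 below all of them. The ratio averaged 773 ± 58.1 in AL and 1836 ± 965 in CR (SD, n = 4). It does not depend on the scaling of the libraries, and no test was made of it because the contrast of Pip was used to select the gene.

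Genes of the route by which prolactin reaches Pip were present at low to moderate levels. Of Prlr, Jak2, Stat5a, Stat5b, Cish and Socs2, 0 were called by edgeR's quasi-likelihood test, and 1 of them, Socs2, had an unadjusted p under 0.05, near the 16.7% of all genes tested. Socs2, a target and inhibitor of cytokine receptor signalling, ran at 14.0 ± 3.54 CPM in AL and 29.3 ± 10.9 CPM in CR (SD, n = 4; log2 fold change 1.06, SE 0.29, adjusted p = 0.0810 by edgeR). It was called by DESeq2 (adjusted p = 0.0154), by voom (adjusted p = 0.0333), with no filter on low counts (adjusted p = 0.0353) and without CR replicate 4 (adjusted p = 0.00553). Prlr, the prolactin receptor, ran at 43.6 ± 10.4 CPM in AL and 32.2 ± 4.09 CPM in CR, with a log2 fold change of -0.44 (SE 0.20). The log2 fold change was -0.49 (SE 0.35) for the kinase Jak2, 0.22 (SE 0.28) and -0.03 (SE 0.25) for the transcription factors Stat5a and Stat5b, and 0.28 (SE 0.24) for Cish, a target of STAT5. Esr1, the estrogen receptor, did not pass the filter and stayed at or below 0.859 CPM.

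Of the genes whose proteins bind Pip, Azgp1, zinc-alpha-2-glycoprotein, ran at 51.2 ± 3.91 CPM in AL and 44.2 ± 10.8 CPM in CR (SD, n = 4), with a log2 fold change of -0.21 (SE 0.19). Fn1, fibronectin, ran at 4.55, 5.28, 14.5 and 8.83 CPM in AL and 1.56, 2.84, 3.96 and 1.55 CPM in CR. Each CR library of Fn1 lay below each AL library, and its log2 fold change was -1.74 (SE 0.43, adjusted p = 0.0607 by edgeR's quasi-likelihood test). It was called by DESeq2 (adjusted p = 0.00310) and with no filter on low counts (adjusted p = 0.0205). Cd4 did not pass the filter and ran at no more than 1.12 CPM.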

How the data were processed

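LG RNA was sequenced from its 3′ ends. Per the labels and the study's methods, the authors deposited raw counts, made with cutadapt for trimming, STAR for alignment to mm10 and HTSeq for counting. The strand setting and annotation are not given in the sources used here. The deposited log2 values, recomputed from the counts by DESeq2 size factors with a largest difference of 5.3e-09, were not used. Of 24557 rows, 5 repeated symbols were dropped. Diets were compared with edgeR 4.0.16 (RLE factors, filterByExpr, quasi-likelihood F test, Benjamini-Hochberg adjustment) in R 4.3.3, and log2 CPM used a prior count of 2. The biological coefficient of variation was 34.7%. The script was tested on simulated data. The genes and the lists were chosen with earlier results of these data known. Genes are named if they are Dcpp1, Dcpp2, Dcpp3 or Pip, belong to a listed group, are the 3 nearest protein-coding genes on each side, or are among the 5 most correlated with one of the 4 genes. Sequences came from GENCODE vM21 and RefSeq. Other scalings, filters, tools, covariates and left-out libraries were tried as alternatives, among them limma 3.58.1 voom and DESeq2 1.42.0. Equal replicate numbers were not taken as pairs. One listed gene is not reported here. The cornea, conjunctiva and sequence reads were not analysed here.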

Additional observations from a re-analysis of the deposited data

How the results depend on the processing

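Scaling by TMM or upper-quartile factors kept the counts within 1.5 times and the log2 fold changes within their spread. Calls changed more. Of all genes, 222 were called, of the listed genes 7, and of Dcpp1, Dcpp2, Dcpp3 and Pip 1. DESeq2 called 704, 16 and 3, voom with quality weights 397 of all genes, and no filter on low counts 436, 15 and 3. Robust dispersion called 2 listed genes and 0 of the 4, at least 10 counts in every library 3 and 0, and leaving out the 50 most counted genes 2 of the 4. At least 10 counts in every library gave no value for Dcpp2 and Dcpp3. With the parotid score as covariate 1 gene, 0 listed genes and 0 of the 4 were called, and the log2 fold changes moved to -1.73, 0.63, 0.97 and -0.44. Leaving out each library in turn gave 61 (without AL replicate 2) to 700 (without CR replicate 4) genes, 2 to 19 listed genes and 0 to 3 of the 4. Below 222 over 1.5 times were also 78 without AL replicate 1, 87 without AL replicate 3, and 121, 65 and 64 without CR replicates 1, 2 and 3. The log2 fold changes ran from 3.53 to 4.83 for Dcpp1, 3.68 to 4.71 for Dcpp2, 4.61 to 5.51 for Dcpp3 and -0.01 to 0.44 for Pip. Without both libraries numbered 4, chosen after seeing the data, 656 genes, 18 listed genes and 3 of the 4 were called. The cause of these shifts was not tested. A block for the replicate number called 700, 17 and 3, with log2 fold changes of 4.83, 4.14, 5.23 and 0.22, the 3 called being Dcpp1, Dcpp2 and Dcpp3, and it also called Fn1, Smr3a and Socs2. Nothing in the labels ties libraries of one number to each other. Deviations of same-numbered libraries correlated at 0.149, 0.079, 0.244 and 0.462 for numbers 1 to 4, all positive but not each above 0.1, the level set for a pairing, and AL replicate 3 and CR replicates 1 and 2 correlated best with another number. By Spearman's rho, 5 of 40 gene names by likeness were kept. At 36 Dcpp counts in AL replicate 4, shares within the family are known only coarsely.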
